A study of Rattus norvegicus with 6 samples.

Results

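The organic anion transporting polypeptides, encoded by the Slco genes, are carriers in the cell membrane that bring bile acids, steroid conjugates, thyroid hormones and many drugs into cells. In rat liver several of them sit on the blood-facing side of hepatocytes, where they take up compounds that are then metabolised, exported across the basal membrane or pumped into bile. The 8 genes described here, Slco1a1, Slco1a4, Slco1a5, Slco1b2, Slco2a1, Slco2b1, Slco3a1 and Slco4a1, were listed by name, and their probes were found through the transcript accession that the arrays give each probe. Each of the 8 genes had 1 probe, on an array whose 30367 probes name 15170 genes. The transcripts are NM_131906 for Slco1a4, NM_030838 for Slco1a5, NM_017111 for Slco1a1, NM_031650 for Slco1b2, NM_080786 for Slco2b1, NM_022667 for Slco2a1, NM_177481 for Slco3a1 and NM_133608 for Slco4a1. The list was drawn up with earlier results of these data known.

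The data are liver expression arrays of 6 male Wistar Hannover rats, 3 dosed daily with 100 mg/kg of pregnenolone-16α-carbonitrile (PCN) and 3 control rats dosed with corn oil, the vehicle, all by oral gavage over 7 days. PCN, a steroid made synthetically, is the classic activator of the pregnane X receptor of rodents (PXR, gene Nr1i2), a nuclear receptor that senses foreign compounds. The rats were bought at 4 weeks of age and kept for 1 week before dosing, and 1 array was hybridised per rat with dye-labelled copies of 100 ng of total liver RNA. A signal is given as the scanner's processed intensity divided by the 75th percentile of the array, so that 1 is the brightness of a spot at that percentile. Probes differ in how strongly they bind, so the signal of a probe is compared between arrays, and gene levels are not compared between probes. Sums of marker signals add up different probes, so bright probes weigh most in them.

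The 75th percentile lay between 488 and 627 intensity units on the PCN arrays and between 634 and 758 on the control arrays, and 0 spots were saturated. All PCN arrays shared 1 slide and scan and all control arrays a second slide and scan. Treatment, slide and scan therefore cannot be told apart for any result here. All 9 hepatocyte markers examined, among them albumin (Alb), were bright enough to test and 0 passed, against 19.9% of all tested genes. Their summed signal was 1967 to 2483 on the PCN arrays and 2105 to 2224 on the control arrays. In whole liver, a change in the number of cells of a type cannot be told apart from a change in RNA per cell.

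Of the 8 genes, 4 lie together on rat chromosome 4 in the RefSeq annotation of the assembly GRCr8. There the order is Slco1c1, Slco1b2, Slco1a4, Slco1a1, Slco1a3, Slco1a6 and Slco1a5, with 0 other protein-coding genes annotated between neighbours. The window from 250 bases before to 50 bases after the annotated start was taken for each of the 8 genes and for Slco1a6. The windows of Slco1a4 and Slco1a1 are shown because they were the most alike of the 36 pairs that these 9 windows form, while the log2 changes of these genes were the furthest apart among the neighbours that rose. They run from 5′ to 3′ along the gene. Capitals mark the 8 runs of at least 8 bases that are the same in both in a global alignment, the longest of 11 bases. The Slco1a4 window is chr4:176495797-176496096 and the Slco1a1 window chr4:176681943-176682242, both on the minus strand of GRCr8.
Slco1a4: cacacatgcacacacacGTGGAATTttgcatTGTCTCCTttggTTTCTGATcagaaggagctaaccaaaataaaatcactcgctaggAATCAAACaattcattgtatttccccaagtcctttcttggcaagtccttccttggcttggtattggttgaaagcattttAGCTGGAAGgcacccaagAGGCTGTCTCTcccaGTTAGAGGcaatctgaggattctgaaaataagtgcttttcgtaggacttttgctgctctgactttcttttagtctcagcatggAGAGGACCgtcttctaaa
Slco1a1: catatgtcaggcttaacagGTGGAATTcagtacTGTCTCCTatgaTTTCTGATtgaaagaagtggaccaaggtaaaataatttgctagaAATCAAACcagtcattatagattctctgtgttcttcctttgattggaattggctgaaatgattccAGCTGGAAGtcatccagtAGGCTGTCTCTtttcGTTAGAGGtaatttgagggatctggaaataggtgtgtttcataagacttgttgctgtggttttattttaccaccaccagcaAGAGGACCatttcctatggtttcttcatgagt

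These 2 windows shared 213 bases over 319 alignment columns, or 66.8%, against 39.9% to 51.5% in the other 35 pairs. The windows were searched on both strands for the nuclear receptor site AGGTCA and its variant AGTTCA, for direct repeats of either site with 3 or 4 bases between the copies, and for TGAACT followed, after 6 bases, by AGGTCA or AGTTCA. Each of these spaced forms, the kinds PXR is known to bind, was in 0 of the 8 members' windows and in at most 8 (0.0239%) of all 33469 windows of this length. The single sites AGGTCA and AGTTCA are in 16.2% and 14.5% of all windows, and among the 8 members each was found only in the window of Slco1b2. The short forms overlap the spaced ones by construction. Capitals mark these 2 matches in the stretch of Slco1b2 from base -88 to base -36 relative to the start, chr4:176282496-176282548 on the plus strand of GRCr8; the AGGTCA and AGTTCA matches read as TGACCT and TGAACT on the strand shown.
Slco1b2: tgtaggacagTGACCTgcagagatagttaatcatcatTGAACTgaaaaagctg
A match of letters is a description of the window and no measure of binding, and the windows do not reach distant sites.

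The comparison asks how far uptake transporters of the Slco family differ in PCN-treated livers. Slco1a4 and Slco1a5 rose by over 3-fold and Slco1a1 by 1.51-fold, while Slco1b2, Slco2b1 and Slco2a1 did not pass the test. Thus 3 of the 6 members bright enough to test were higher with PCN and 0 were lower, at a Benjamini-Hochberg adjusted p under 0.05 in a limma fit over 16389 genes and features. Over all of these, 19.9% passed, 4.37% being higher and 15.5% lower, and 0.769% passed with a rise of at least 2-fold, as Slco1a4 and Slco1a5 did. The median log2 change was 0.24 over the 6 tested members and −0.06 over all tested genes. The other 2 members, Slco3a1 and Slco4a1, were too dim to test.

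**Figure D1:**
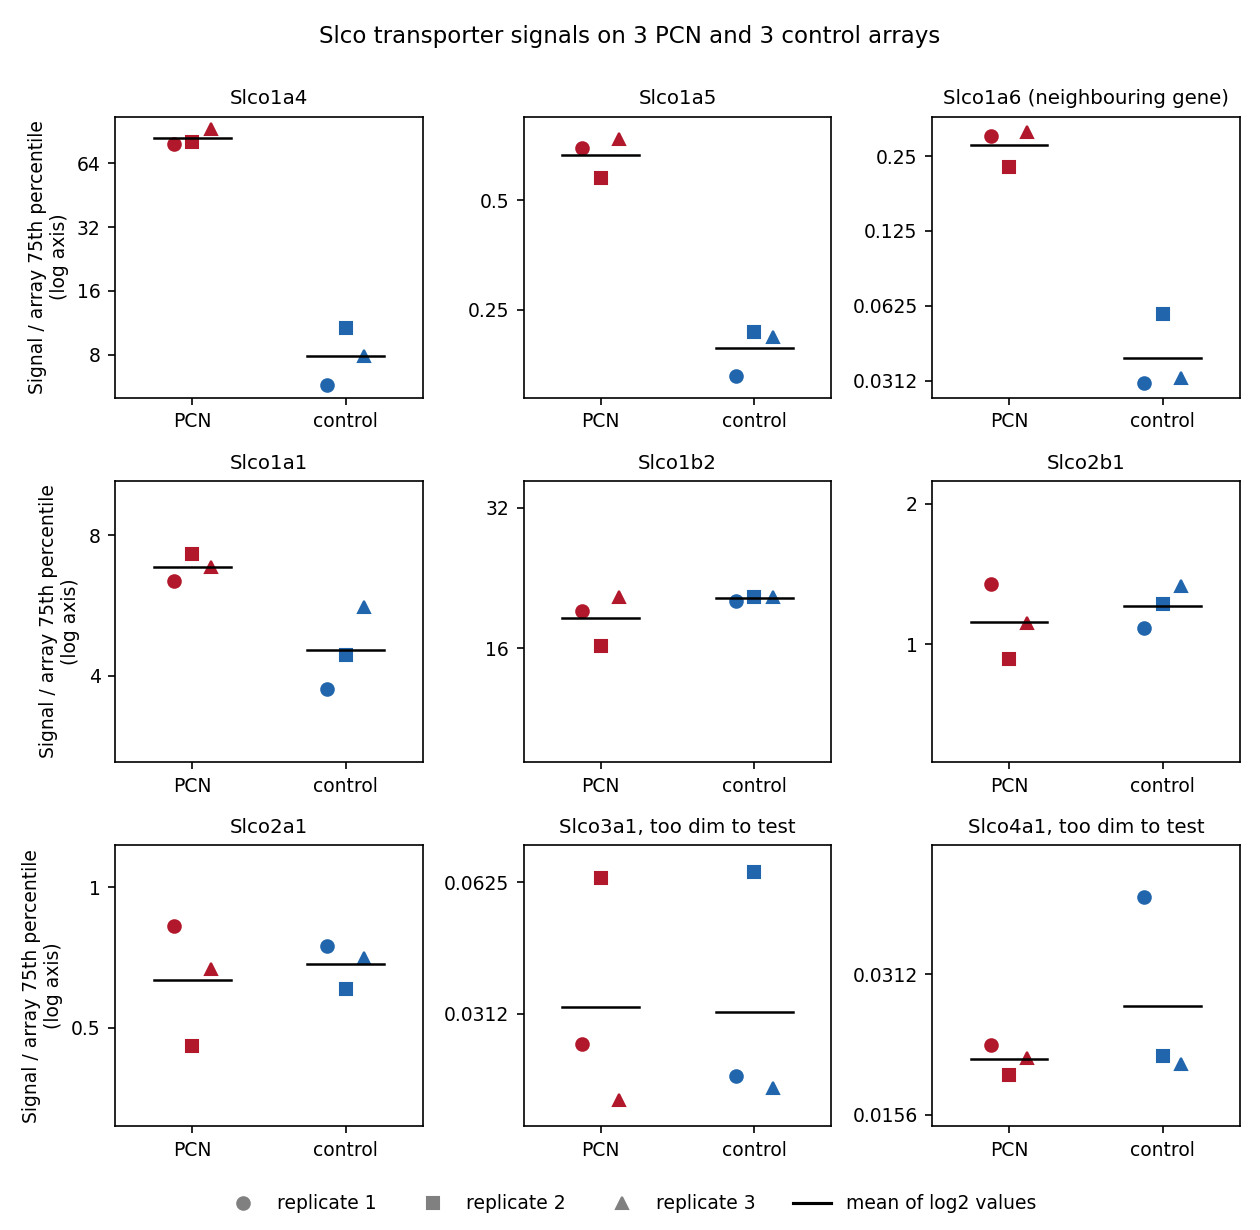
Signal of each of the 8 Slco transporters and of the neighbouring gene Slco1a6 on the 3 PCN arrays (red, left) and the 3 control arrays (blue, right), as intensity over the array's 75th percentile on log axes that differ between panels. Symbols mark the replicate and bars the mean of the log2 values. All PCN arrays lie above all control arrays for Slco1a4, Slco1a5, Slco1a6 and Slco1a1, and the groups overlap in the other panels.

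Slco1a4, known earlier as Oatp2, carries bile acids, thyroid hormones and cardiac glycosides such as digoxin into hepatocytes. Its signal was 78.8, 80.8 and 92.1 on PCN arrays 1 to 3, against 5.79, 10.67 and 7.91 on control arrays 1 to 3. The PCN arrays were all higher, the lowest of them 7.38-fold above the highest control array. The log2 change was 3.41 ± 0.22 (SE, n = 3 per group; limma adjusted p = 3.56e-04), a 10.6-fold rise and the 13th largest among the 16389 tested. The control livers spread 1.84-fold from lowest to highest, and the PCN livers 1.17-fold. Control replicate 2 was the highest control, at both spots of the probe (8132 and 8039 intensity units, against 3812 to 5282 on the other control arrays). Between 44440 and 51360 intensity units were read on the PCN arrays, and the spots of the probe differed by at most 0.15 on the log2 scale on any array.

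Slco1a5 encodes Oatp3, a carrier of bile acids and thyroid hormones described mainly in rat intestine and brain. Its signal was 0.696, 0.576 and 0.739 on PCN arrays 1 to 3, against 0.165, 0.217 and 0.210 on control arrays 1 to 3. All PCN arrays were above all control arrays, the lowest 2.65-fold above the highest control. Slco1a5 rose by 1.77 ± 0.15 on the log2 scale (SE, n = 3 per group; limma adjusted p = 9.95e-04), or 3.40-fold. Normexp background correction with its offset of 50 gave 1.40.

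Slco1a1, formerly Oatp1, is a carrier of bile acids and steroid conjugates on the blood-facing side of hepatocytes. Its signal was 6.375, 7.31 and 6.84 on PCN arrays 1 to 3, against 3.74, 4.43 and 5.63 on control arrays 1 to 3. The groups did not overlap, but the lowest PCN array was only 1.13-fold above control replicate 3, the highest control. Slco1a1 rose by 0.59 ± 0.16 on the log2 scale (SE, n = 3 per group; limma adjusted p = 0.0474), or 1.51-fold. This call rests on most of the arrays: it was lost without any 1 of control replicates 1 and 2 or PCN replicates 1 to 3 (limma adjusted p = 0.116, 0.122, 0.0792, 0.114 and 0.105), and kept without control replicate 3 (adjusted p = 0.0271). It also ended with quantile normalization (adjusted p = 0.0569), with scaling to spike-in RNA (0.31, adjusted p = 0.242), without the filter on dim probes (adjusted p = 0.114) and with the replicate block (adjusted p = 0.0692). Non-overlapping groups were seen for 41.4% of all tested genes, and for 14.7% in the upward direction, so that separation alone is common in these data.

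Slco1b2, formerly Oatp4, is the carrier of bile acids, bilirubin and statins whose expression is largely confined to hepatocytes. Its signal was 19.25, 16.2 and 20.6 on PCN arrays 1 to 3, against 20.2, 20.6 and 20.6 on control arrays 1 to 3. The groups overlapped, with PCN replicate 2 the lowest of the 6 and the control arrays within 1.02-fold of each other. On the log2 scale the change was −0.14 ± 0.12 (SE, n = 3 per group; limma adjusted p = 0.454), with a 95% interval from −0.42 to 0.14. It was 0.07 with median scaling and −0.42, past the test, with scaling to the spike-ins (limma adjusted p = 0.0330). These scalings moved the median of all tested genes to 0.14 and −0.34, against −0.06 in the values given here. The probe had 1 spot per array.

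Slco2b1, a carrier of steroid sulfates found in liver and other organs, gave 1.345, 0.9305 and 1.11 on PCN arrays 1 to 3, against 1.09, 1.22 and 1.33 on control arrays 1 to 3. PCN replicate 1 was the highest of the 6 arrays and PCN replicate 2 the lowest, so the PCN livers lay on both sides of the controls. The log2 change was −0.12 ± 0.16 (SE, n = 3 per group; limma adjusted p = 0.656), with a 95% interval from −0.50 to 0.27. It was 0.02 without PCN replicate 2 and 0.09 with median scaling.

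Slco2a1 encodes the prostaglandin transporter, which clears prostaglandins from the blood and is known from endothelial cells. Its signal was 0.828, 0.457 and 0.670 on PCN arrays 1 to 3, against 0.748, 0.605 and 0.708 on control arrays 1 to 3. PCN replicate 1 was again the highest array and PCN replicate 2 the lowest, a 1.81-fold spread within the PCN group against 1.24-fold among controls. The log2 change was −0.11 ± 0.22 (SE, n = 3 per group; limma adjusted p = 0.764), with a 95% interval from −0.64 to 0.42, and turned to 0.12 without PCN replicate 2 and to 0.09 with median scaling. Of 7 tested endothelial markers, 0 rose and 1 fell (Cdh5, at −0.49, named after its value was seen), against 4.37% higher and 15.5% lower over all tested genes. These markers had a median of −0.23 and a summed signal of 23.1 to 26.4 on the PCN arrays and 24.4 to 26.9 on the control arrays. Most of this sum was 1 probe, Kdr, named after its value was seen. Kdr was at 19.5 to 22.7 on the PCN and 19.3 to 22.5 on the control arrays, so the sum says little of the other markers. The part of the endothelial markers in the values of Slco2a1 was not tested.

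Slco3a1 and Slco4a1 are carriers of prostaglandins and thyroid hormones that many tissues express. Slco3a1 gave 0.0266, 0.0640 and 0.0198 on PCN arrays 1 to 3, against 0.0225, 0.0660 and 0.02115 on control arrays 1 to 3. It was high in replicate 2 of both groups, where both spots of the probe read 34.6 to 54.7 intensity units, against 9.54 to 16.9 on the other arrays. Slco3a1 was well above background on 2 of 3 arrays of each group, so it did not meet the condition for a test, and its measured log2 difference was 0.03. Slco4a1 gave 0.0220, 0.0190 and 0.0207 on PCN arrays 1 to 3, against 0.0458, 0.0209 and 0.0200 on control arrays 1 to 3. Control replicate 1 alone stood above the rest, and 2 of the 3 PCN arrays and 1 of the 3 control arrays had the probe clearly over background. Its measured log2 difference was −0.38, and 0.01 without control replicate 1. In the limma fit without the filter on dim probes, neither passed (adjusted p = 0.9797 for Slco3a1 and 0.599 for Slco4a1).

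**Figure D2:**
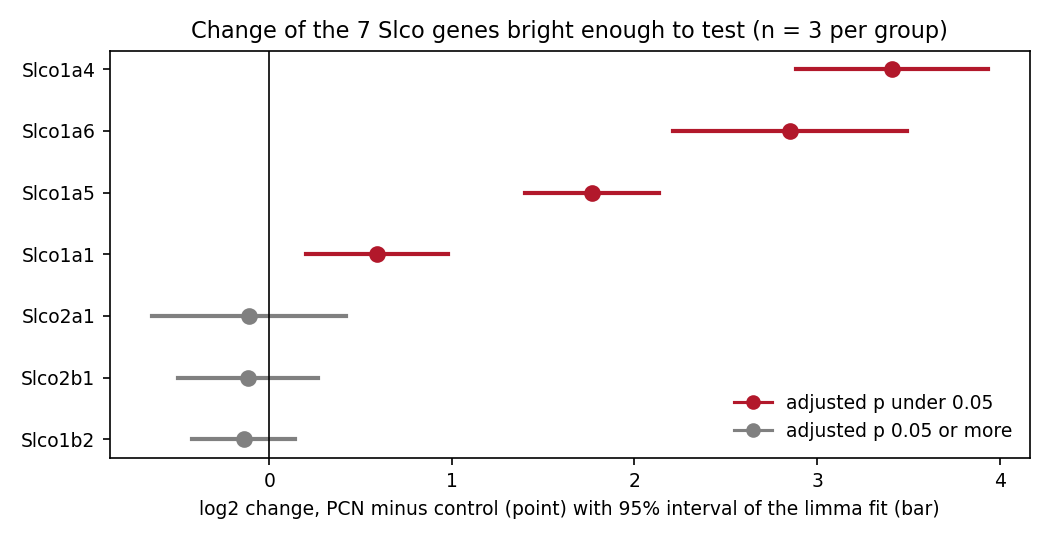
Log2 change, PCN minus control, of the 7 Slco genes bright enough to test, with the 95% interval of the limma fit (n = 3 per group). Slco1a4, Slco1a6, Slco1a5 and Slco1a1 passed the test (red) at 3.41, 2.85, 1.77 and 0.59, and the intervals of Slco2a1, Slco2b1 and Slco1b2 (grey) span 0.

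Besides the 8 members, the arrays carry named probes for 6 other Slco genes, of which only Slco1a6 was bright enough to test. Slco1a6, whose mouse counterpart is known from kidney, lies between Slco1a3 and Slco1a5. Its signal was 0.302, 0.2255 and 0.313 on PCN arrays 1 to 3, against 0.0307, 0.0577 and 0.0320 on control arrays 1 to 3. All PCN arrays were higher, the lowest 3.91-fold above control replicate 2, the highest control. The log2 change was 2.85 ± 0.27 (SE, n = 3 per group; limma adjusted p = 1.26e-03), or 7.22-fold, the 25th largest rise. With normexp background correction it was 1.53 (limma adjusted p = 2.06e-04), a setting that also adds an offset of 50 to each signal and starts from median spot signals. The control spots read 15.7 to 48.9 intensity units, and which of these choices lowered the value was not tested. Its spots differed by up to 0.74 on the log2 scale on 1 array. Slco1a3, the kidney carrier OAT-K that lies between Slco1a1 and Slco1a6, was not well above background on any of the 6 arrays at either of its probes, nor were Slco4c1, Slco5a1 and Slco6c1. The brain carrier gene Slco1c1 was well above background on 1 control array.

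Control replicate 2 was the highest control for Slco1a4, Slco1a6 and Slco1a5, by 0.44, 0.59 and 0.15 above the control mean on the log2 scale. For Slco1a5, control replicate 3 was close, at 0.10. For Slco1a1 control replicate 2 was not the highest, at −0.03, and for Slco1b2 the controls were within 1.02-fold of each other. Of the 5 genes named below for a pattern like Slco1a4, Cyp3a9, Ces2j, Gadd45b and Ces2c were also highest in control replicate 2 (0.55, 0.34, 0.27 and 0.21). Cyp3a18 was highest in control replicate 1 (0.22, against 0.06 in control replicate 2). The control arrays were part of the measure that chose these 5 genes, so a high control replicate 2 in them is no separate result. The Slco1a genes are close relatives, the files give no probe sequences, and RNA of one may bind the probe of another to some extent. The part of such binding in the signals of Slco1a5 and Slco1a6 was not tested.

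How far Slco1a4 departs from its relatives was measured within each array, as its log2 signal minus that of the other gene, compared between the groups. This quantity does not change with a common scaling of an array. Over 6 such comparisons, Slco1a4 rose more than each of the other genes on all 3 PCN arrays, by 3.55 ± 0.26 than Slco1b2, 3.53 ± 0.28 than Slco2b1, 3.52 ± 0.43 than Slco2a1, 2.82 ± 0.25 than Slco1a1 and 1.64 ± 0.17 than Slco1a5 (log2, SE, n = 3 per group). Against Slco1a1, the neighbour with the most similar start window, the PCN arrays lay at 2.83, 2.67 and 2.96 and the control arrays at −0.17, 0.47 and −0.30, relative to the control mean. Against Slco1a6 the difference was 0.56 ± 0.19, with the PCN arrays at 0.35, 0.81 and 0.52 and the control arrays at −0.12, −0.15 and 0.27, and it ranged from 0.30 with cyclic loess to 1.82 with normexp. The exact p of that difference was above 0.1 in 7 of 16 other settings, at 0.3 with quantile normalization and 0.2 with cyclic loess and without control replicate 1, control replicate 2 or any 1 of the PCN replicates. As reported, each of the 6 comparisons gave p = 0.1 in the two-sided exact permutation test, also after Benjamini-Hochberg adjustment over the 6, and 3 arrays against 3 cannot give less than 0.1.

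**Figure D3:**
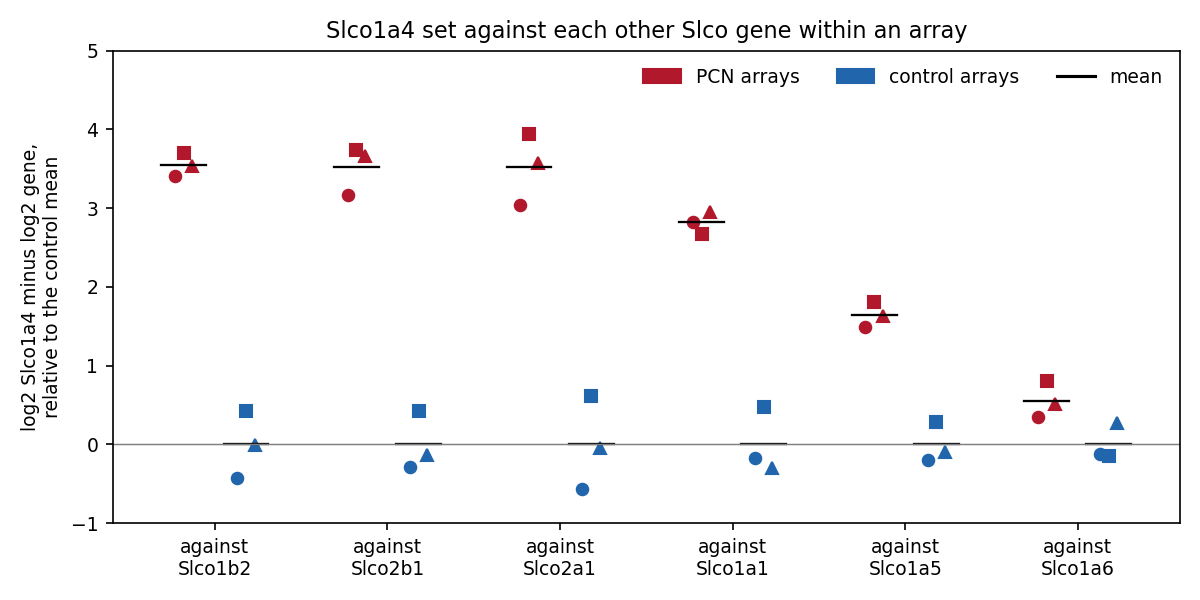
Log2 signal of Slco1a4 minus that of 6 other Slco genes within each array, relative to the control mean, on the 3 PCN arrays (red, left of each pair) and the 3 control arrays (blue). Circles, squares and triangles are replicates 1, 2 and 3, and bars are means. The PCN arrays lie above the control arrays in each comparison, by 3.55 against Slco1b2 and by 0.56 against Slco1a6.

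The genes with a pattern most like Slco1a4 were found by the root mean square difference over the 6 arrays, each gene's log2 values being taken relative to its control mean, among 10038 genes with a symbol. The nearest were Ces2c (0.34), Gadd45b (0.36), Cyp3a9 (0.37), Ces2j (0.39) and Cyp3a18 (0.40), where the numbers are that difference in log2 units. Ces2c and Ces2j are carboxylesterases, Cyp3a9 and Cyp3a18 are cytochrome P450s of the 3A subfamily, and Gadd45b is a stress-inducible gene. Slco1a6 came 8th, at 0.44. These genes rose by 2.85 to 3.76 on the log2 scale, against 3.41 for Slco1a4. A rise of similar size and a similar order of the control arrays are what this measure selects for, so neither is a separate result.

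The other genes of anion handling were taken from lists written with earlier results known. Among other liver uptake carriers, 1 of 10 tested was higher, 1 lower and 8 did not pass (median −0.18, against −0.06 over all genes). The share past the test was close to the 19.9% over all genes. Slc10a1, the sodium-dependent bile acid carrier NTCP, was at 0.27 ± 0.12 (limma adjusted p = 0.176). The carnitine carrier Slc22a5 fell by 0.96 ± 0.17 (adjusted p = 0.0106). Slc22a18 rose by 0.37 ± 0.10 (adjusted p = 0.0396), a call lost when any 1 array was left out (adjusted p up to 0.118) and with cyclic loess, spike-in scaling, no filter or the replicate block (up to 0.634).

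Among efflux pumps, 4 of 12 tested were higher, 7 did not pass and 1 was lower, against 4.37% higher and 15.5% lower over all tested genes. The median was 0.01, and the lower pump was Abcg2 at −0.79, named after its value was seen. Abcg5, part of the sterol exporter, rose by 2.69 ± 0.18 (limma adjusted p = 3.58e-04) and the drug pump Abcb1a by 1.40 ± 0.25 (adjusted p = 0.0108), or 0.88 with normexp. Abcc3, which moves conjugates back into blood, did not clear the background on the 3 control arrays. In the group means it was at least 5.40-fold higher with PCN (limma adjusted p = 0.0151 for the fitted change). For this bound each control array counts with the dimmest signal among its well-measured probes where Abcc3 is dimmer. The bound does not hold for each array: the signal was 0.0231, 0.105 and 0.0596 on PCN arrays 1 to 3, against 0.0101, 0.00787 and 0.00853 on control arrays 1 to 3. Abcc3 entered the test through the PCN arrays alone, so its place in the count of higher pumps rests on that filter. Its fitted log2 change was 2.58, past the test also without the filter (adjusted p = 0.0386), and was 0.76 with normexp and 1.87 with the deposited table on the log2(value + 0.01) scale. This change was 2.08 without PCN replicate 2 and 3.17 without PCN replicate 1. Abcb11, the bile salt export pump, rose by 0.62 ± 0.13 (adjusted p = 0.0199). Leaving out replicate 1 or 3 of either group ended this call (adjusted p up to 0.0700), as did spike-in scaling, no filter and the replicate block (up to 0.0888). Abcc2, the canalicular pump for anionic conjugates, was at 0.43 ± 0.13 (adjusted p = 0.0564). It passed with median scaling (0.63, adjusted p = 0.0190) and normexp (adjusted p = 0.0397), and was at 0.15 with spike-in scaling.

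Pdzk1, a scaffold protein that holds Slco1a1 and other carriers at the membrane in rodent hepatocytes, gave 3.59, 2.88 and 3.798 on PCN arrays 1 to 3, against 1.69, 1.85 and 2.20 on control arrays 1 to 3. All PCN arrays were higher, and the gene rose by 0.84 ± 0.15 (limma adjusted p = 0.0123). The related scaffold Nherf1 rose by 1.09 ± 0.17 (adjusted p = 7.71e-03). In this list of anchoring proteins 2 of 7 tested were higher, 0 lower and 5 did not pass (median 0.13). Over all tested genes 4.37% were higher and 15.5% lower.

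Receptors and liver factors known to act on transporter genes were read next. Nr1i2, which encodes PXR, was at −0.10 ± 0.11 and Nr1i3, which encodes the related receptor CAR, at −0.33 ± 0.38 (limma adjusted p = 0.561 and 0.580). Their partner Rxra was at 0.31 ± 0.13 (adjusted p = 0.155). Of the 22 tested, 1 was higher, 2 lower and 19 did not pass (median 0.01), against 19.9% past the test over all genes. The one that rose was Hnf4a, by 0.63 ± 0.13 (adjusted p = 0.0160). Without control replicate 3 that call ended (adjusted p = 0.0565), as with spike-in scaling, no filter and the replicate block (up to 0.0993). Nr0b2 and Nr3c1 fell by 1.66 ± 0.44 and 0.55 ± 0.12 (adjusted p = 0.0425 and 0.0235). Each of these calls survived only 2 of the 6 omissions of a single array (adjusted p up to 0.116 and 0.0787) and ended with median scaling, no filter and the replicate block. With the mean of its probes in place of the brightest, Nr3c1 was at −0.27 and did not pass (adjusted p = 0.149). Nr0b2 was lost without replicate 1 or 3 of the controls or replicate 1 or 2 of the PCN group, Nr3c1 without replicate 2 or 3 of the controls or replicate 1 or 3 of the PCN group.

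Of 12 tested enzymes known as PXR targets, 11 were higher, 0 lower and 1 did not pass, against 4.37% higher over all tested genes. This list too was written with earlier results of these data known, so the count is a description only. The median was 1.81, and the gene that did not pass was Sult2a1 at 0.30, named after its value was seen. Cyp3a23-3a1 rose by 4.31 ± 0.19 (limma adjusted p = 1.69e-04), more than any Slco gene tested. Thyroid hormones are among the cargo of Slco1a4. Of 10 tested genes of thyroid hormone handling, 2 were higher, 0 lower and 8 did not pass (median −0.05). Over all tested genes 4.37% were higher and 15.5% lower. The share past the test in either direction was close to the 19.9% over all genes. The 2 higher genes were Ugt1a6, a glucuronosyltransferase, at 1.36 ± 0.13 and the receptor Thrb at 0.88 ± 0.15 (adjusted p = 1.46e-03 and 0.0108). Thrb was at 0.39 with normexp.

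Markers of other liver cells were read beside these values, where over all tested genes 4.37% were higher and 15.5% lower. Of 5 tested bile duct markers 1 was higher (Ggt1, at 1.72, named like the other markers here after its value was seen), of 8 Kupffer cell markers 0 passed (median −0.40), and of 9 stellate cell markers 1 was higher (Rgs5, at 0.96) and 2 lower (Lrat and Acta2, at −1.33 and −0.74; median −0.16). Of 4 T cell markers 2 were lower (Cd3d and Lck, at −0.66 and −0.67), and of 3 red blood cell markers 0 passed. Lck was well above background on all 3 control arrays but on only 1 PCN array. It entered the test through the control arrays alone, so its place in this count rests on that filter. The summed signal of the bile duct markers was 0.667 to 0.741 on the PCN arrays and 0.456 to 0.558 on the control arrays. The brightest probe, Epcam, was the largest part of this sum, at 0.408 to 0.445 on the PCN and 0.240 to 0.364 on the control arrays. Epcam, Spp1 and Krt7 were at 0.60, 0.24 and 0.19 and Krt19 at −0.41, none past the test. The Kupffer cell markers summed to 19.4 to 30.3 on the PCN arrays and 28.9 to 34.7 on the control arrays. Clec4f was the largest part of this sum, at 14.1 to 21.8 on the PCN and 19.45 to 25.2 on the control arrays. For the stellate markers the sum was 4.05 to 4.91 on the PCN arrays and 5.51 to 6.20 on the control arrays. The part of these markers' cells in the rise of Slco1a4, Slco1a5 and Slco1a6 was not tested.

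**Figure D4:**
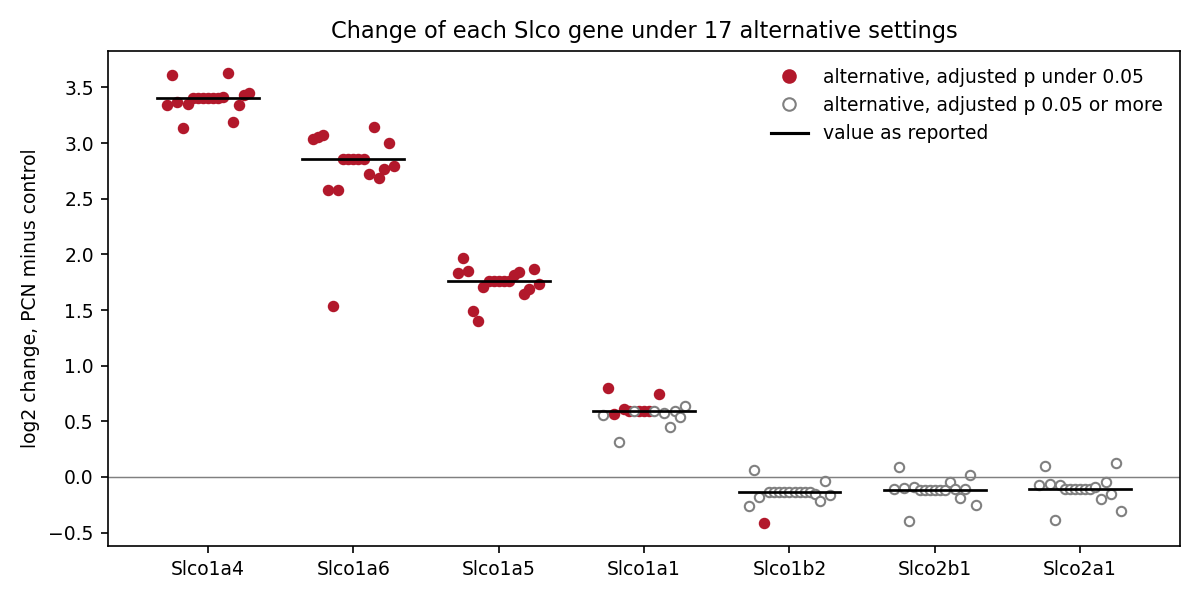
Log2 change, PCN minus control, of the 7 tested Slco genes under 17 other settings (points, filled where the adjusted p was under 0.05) and as reported (bars). Slco1a4 stays between 3.13 and 3.63 and Slco1a5 between 1.40 and 1.97, all past the test, while Slco1a1 passes in 8 of 17 settings and the last 3 genes lie around 0.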

How the data were processed

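Liver RNA of 6 rats was measured on Agilent 1-colour arrays. Per the file headers, the deposited intensity values were made with Feature Extraction (Agilent, version 10.7.3.1), and the rat build is rn4. The processed signal is background-subtracted within an array. The deposited files also mark, in columns of other kinds, spots that are outliers, saturated or well above background. The authors also deposited a table that, set against the scanner values, holds a linear ratio of the processed signal to the 75th percentile of the array (medians of 0.08 on the PCN and 0.09 on the control arrays), with no centring of genes.

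In R 4.3.3, the log2 of the 75th percentile of the non-control spots was subtracted from each log2 processed signal. Outlier spots were left out and spots of a probe averaged. A probe was tested if well above background on all 3 arrays of a group (18329 probes). Accessions were matched to RefSeq transcripts, which named 18004 of 30367 probes. Genes with several probes were represented by the brightest, giving 16389 genes and features. The comparison used lmFit and eBayes of limma 3.58.1 (no covariate, two-sided, Benjamini-Hochberg over all 16389, threshold 0.05). The code was tested on simulated data. The number of arrays limits the precision.

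Members, lists, named genes and alternatives were chosen with earlier results of these data known. The genes named are the members, 12 genes of PXR and anion handling whatever their values (1 of them is not reported here), up to 3 of each list past the test with the largest change, and the 5 nearest to Slco1a4 in pattern. Alternatives were other scalings (quantile, median, cyclic loess, E1A spike-ins), normexp (offset 50) on the spots' median rather than mean signals, the deposited table (pseudocount 0.01), other filters on dim or outlier spots, the mean of a gene's probes, the replicate number as a block, and leaving out each array. Promoter windows come from RefSeq for GRCr8. No other coordinates are given, as the arrays name another build.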

Additional observations from a re-analysis of the deposited data

How the results depend on the processing

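The rises of Slco1a4, Slco1a5 and Slco1a6 passed the test under all 17 alternatives, at 3.13 to 3.63, 1.40 to 1.97 and 1.53 to 3.15, and Slco1a4 rose more than each of the 6 other Slco genes in all 16 settings where this was computed. Slco1a1 kept its direction in 17 settings, but was not past the test with quantile normalization (0.56), spike-in scaling (0.31), no filter on dim probes (0.59), the replicate block (0.59) and 5 of the 6 fits that left out an array (0.45 to 0.75 over the 6). With median scaling Slco1b2, Slco2b1 and Slco2a1 turned to 0.0672, 0.0910 and 0.0943, none past the test. Without PCN replicate 2, Slco2b1 and Slco2a1 gave 0.0160 and 0.123, their ranges over the fits that left out an array being −0.25 to 0.0160 and −0.31 to 0.12. With spike-in scaling Slco1b2 passed the test at −0.42, so that the members past the test there were Slco1a4, Slco1a5 and Slco1b2. Slco4a1, too dim to test, gave 0.13 with normexp. The causes of these shifts were not tested.

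The number of genes past the test was 5101 with spike-in scaling (156 higher), 1967 without the filter on dim probes, 2067 with the replicate block, and 2024 to 2586 with an array left out. Lower genes made up 78.1% of these calls as reported, against 65.9%, 41%, 65% and 96.9% with quantile, median, cyclic loess and spike-in scaling and 64.4% with normexp. Correlations between arrays gave no sign that the replicate numbers pair the rats, while Slco3a1 was high in replicate 2 of both groups. The deviations of same-numbered arrays correlated at −0.10, −0.03 and −0.05, and those of differently numbered arrays at −0.02 to 0.07. With 3 arrays per group, such values cannot exclude a pairing. The block took Slco1a1 to adjusted p = 0.0692 in the limma fit. Dim signals limit Slco1a6, Slco3a1 and Slco4a1.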
